A study of Mus musculus with 4 samples.

Results

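The circadian clock genes described here are the 10 genes Arntl, Clock, Per1, Per2, Per3, Cry1, Cry2, Nr1d1, Nr1d2 and Dbp, taken by symbol from a table of 39056 genes through their Ensembl mouse gene identifiers. All 10 were found, and every one reached 1 CPM (counts per 1000000 reads of the scaled library total) somewhere. The table holds polyadenylated RNA counts from 4 libraries of S1PR1-GFP reporter mice, in which cells that express the sphingosine-1-phosphate receptor S1PR1 carry green fluorescent protein. The labels are 8, 16 and 20 h of lipopolysaccharide (LPS, bacterial endotoxin) at 10 mg/kg by intraperitoneal injection, and no LPS, with 1 library for each label. Per the labels, lung cells were sorted that carried the reporter and CD31, found on endothelium, and lacked CD45, found on leukocytes. The age and sex of the mice, the number of mice behind a library, and the hour of the day at which mice were injected or lungs were taken are unknown here. The protocol names times of challenge without saying whether they count from 1 injection, so the hours are used as labels.

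The mammalian clock is a feedback loop of transcription that runs in nearly every cell over about a day. The proteins of Arntl (also called BMAL1) and Clock pair and switch on genes through E-box elements, among them the Per and Cry genes, whose proteins then block that pair. A further loop is closed by the nuclear receptors of Nr1d1 and Nr1d2 (REV-ERB alpha and beta), which repress Arntl through RORE elements, while Dbp and its relatives act through D-box elements. In mouse tissues with a running clock, Arntl is high when Nr1d1 and Dbp are low, and the other members peak at staggered hours in between. In bulk samples such as these, fewer cells with a transcript and less transcript per cell cannot be told apart.

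Library totals lay between 27566454 and 28905776 reads, and 11803 genes reached 1 CPM somewhere and are called measured. Of 12 endothelial marker genes 2 were measured, the list's summed level was 5.77 to 8.74 CPM, and Erg, Emcn and Cldn5 had 0 reads in all 4 libraries. Summed levels were 4.88 to 5.73 CPM for 8 leukocyte markers, 85.7 to 118 CPM for 8 macrophage markers, 365 to 464 CPM for 8 fibroblast markers, 14.2 to 33.2 CPM for 8 epithelial markers, 2.75 to 3.93 CPM for 8 mural markers and 0.383 to 1.42 CPM for 6 neutrophil markers. The fibroblast sum was mainly Prrx1, at 209 to 213 CPM, and Col3a1, at 81.8 to 167 CPM. Col1a1 had at most 4 reads in a library and Col1a2 at most 1, so the fibroblast markers did not share 1 level. The labelled endothelial identity is thus not borne out by the endothelial markers, and each hour below stands for the library with that label. The libraries also fell into close pairs. Over genes with at least 20 reads in both libraries together, the mean chi-square per gene, which is about 1 when libraries differ by counting alone, was 1.63 between 16 h and 8 h and 7.38 between 20 h and no LPS, against 74.0 to 79.6 between libraries of different pairs.

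Promoter sequences of some members hold letters of the elements named above. RefSeq promoter windows (build GRCm38.p6, from 250 bases before to 50 bases after a start site) matched 9 of the 10 members, with 13 windows in all; Per2 had none. Both strands were searched for the E-box CACGTG, its variant CACGTT, the D-box TTANGTAA and the RORE core AGTAGGTNA, in which N is any base; the letters of this core were chosen after the Arntl window had been seen, so that match is no finding. No match in a member's window overlapped another. Of all 32851 windows in the RefSeq table, 7.15% held the E-box, 4.68% its variant, 2.32% the D-box and 0.591% the RORE core. The windows of Per3 and Arntl are shown because these genes lay on opposite sides in the libraries, and those of Cry1 and Per1 because they hold the E-box; capitals mark the motifs, and sequences run 5′ to 3′ on the strand of the gene.
Per3, chr4:151044616-151044915, minus strand, D-box at 2 places: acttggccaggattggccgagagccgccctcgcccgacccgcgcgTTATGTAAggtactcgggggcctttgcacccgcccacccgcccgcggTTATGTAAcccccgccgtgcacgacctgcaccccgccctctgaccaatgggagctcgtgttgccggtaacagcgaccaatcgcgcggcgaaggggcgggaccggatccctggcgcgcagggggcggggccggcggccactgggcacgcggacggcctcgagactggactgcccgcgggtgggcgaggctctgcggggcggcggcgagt
Arntl, chr7:113207261-113207560, plus strand, RORE core at 2 places: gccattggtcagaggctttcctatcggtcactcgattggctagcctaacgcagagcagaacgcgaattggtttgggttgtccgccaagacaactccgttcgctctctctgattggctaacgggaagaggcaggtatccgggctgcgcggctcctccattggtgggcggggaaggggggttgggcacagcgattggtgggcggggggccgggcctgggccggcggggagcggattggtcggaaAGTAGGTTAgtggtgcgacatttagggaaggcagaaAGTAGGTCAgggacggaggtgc
Cry1, chr10:85185005-85185304, minus strand, variant and E-box: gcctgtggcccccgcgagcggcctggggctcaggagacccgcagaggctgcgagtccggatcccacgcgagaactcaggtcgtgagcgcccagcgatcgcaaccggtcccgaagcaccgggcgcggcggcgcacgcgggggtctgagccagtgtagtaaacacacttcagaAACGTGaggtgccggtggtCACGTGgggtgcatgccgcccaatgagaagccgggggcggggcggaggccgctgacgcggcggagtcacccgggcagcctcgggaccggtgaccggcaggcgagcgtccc
Per1, chr11:69098699-69098998, plus strand, E-box: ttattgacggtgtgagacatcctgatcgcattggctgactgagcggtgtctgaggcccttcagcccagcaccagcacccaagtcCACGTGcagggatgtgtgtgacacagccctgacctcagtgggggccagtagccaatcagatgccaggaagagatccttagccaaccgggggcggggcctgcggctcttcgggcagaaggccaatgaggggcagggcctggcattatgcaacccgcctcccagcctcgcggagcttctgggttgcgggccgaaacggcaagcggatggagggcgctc
The D-box matches of Per3 began 205 and 158 bases before the start site, the E-box of Cry1 60 bases before it and that of Per1 166 bases before it. In the printed Arntl window the RORE cores began 8 bases before and 28 bases after the start site. The variant AACGTG was also found in the windows of Cry2 and Nr1d1. A match is a description of the letters only.

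Across the labels the clock genes took 2 opposite shapes. Arntl, Clock, Cry2 and, to a smaller degree, Per1 had their higher levels in the libraries labelled 8 h and 16 h, and Per3, Nr1d2, Nr1d1, Per2 and Cry1 had theirs in those labelled no LPS and 20 h. Dbp had the fewest reads, 35 to 51 per library. With 1 library a label there is no test of a pair of libraries: a gene was called higher or lower by size, with a scaled fold of at least 2, a 95% counting interval of that fold on 1 side of 1, and a level of 1 CPM or more in the library where it is higher. By that rule Per3 was the only member called in any of 5 comparisons.

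**Figure D1:**
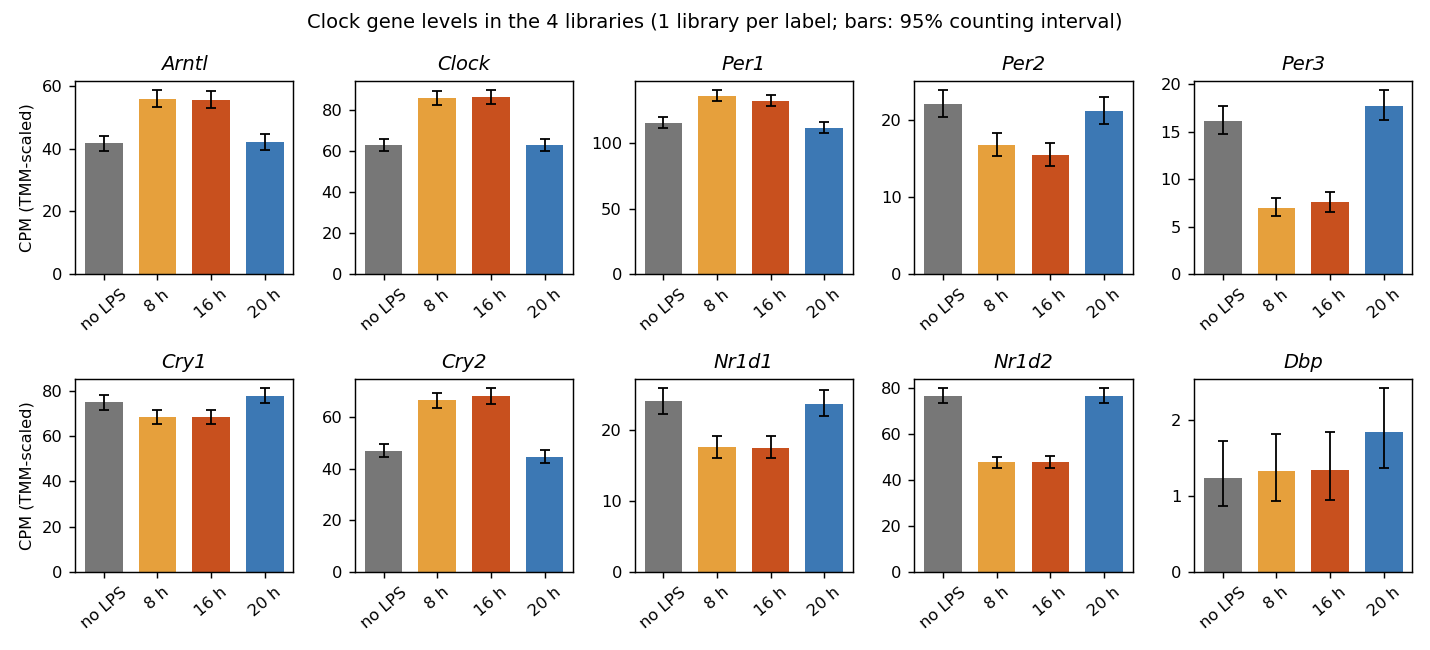
Levels of the 10 clock genes in CPM (scaled with TMM factors) in 4 libraries, from no LPS to 20 h; bars give 1 library each and error bars the 95% counting interval. Arntl, Clock, Per1 and Cry2 stand higher at 8 and 16 h, and Per2, Per3, Cry1, Nr1d1 and Nr1d2 stand lower there.

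The activator Arntl (chromosome 7, 113207465 to 113314126, plus strand, mm10, protein coding like all members) had 1178 reads without LPS, 1601 and 1538 at 8 and 16 h, and 1163 at 20 h, or 41.7, 55.8, 55.5 and 42 CPM. Its level at 8 h was 1.34-fold that with no LPS (95% counting interval 1.24 to 1.44), and at 16 h 1.33-fold (1.23 to 1.44). Its partner Clock (chromosome 5, 76209868 to 76304792, minus strand) stood at 62.9 CPM without LPS, 86.1 and 86.3 at 8 and 16 h, and 63.0 at 20 h. Clock was at 1.37-fold the no LPS level in both the 8 h (1.29 to 1.46) and the 16 h library (1.29 to 1.46). Both activators were thus high in the 8 h and 16 h libraries, and their levels at 20 h were 1.01-fold (0.928 to 1.09) and 1.0-fold (0.937 to 1.07) those with no LPS.

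The Period genes, which encode repressors that enter the nucleus with cryptochromes, did not share 1 direction. Per3 (chromosome 4, 151003652 to 151044665, minus strand) had 457 reads without LPS, 201 and 209 at 8 and 16 h, and 491 at 20 h, or 16.2, 7.00, 7.54 and 17.7 CPM. It was 2.31-fold lower at 8 h than with no LPS (interval 1.95 to 2.74) and 2.14-fold lower at 16 h (1.82 to 2.54), and it was 2.35-fold higher at 20 h than at 16 h (2.0 to 2.78). Per3 at 20 h did not differ from no LPS beyond counting error, at 1.10-fold (0.963 to 1.25). Per2 (chromosome 1, 91415982 to 91459324, minus strand) lay on the same side with a smaller difference, at 22.0 CPM without LPS, 16.7 and 15.4 at 8 and 16 h, and 21.1 at 20 h. Its fold over no LPS was 0.761 at 8 h (0.675 to 0.859) and 0.700 at 16 h (0.618 to 0.793), which did not reach the call. Per1 (chromosome 11, 69095217 to 69109960, plus strand), the Period gene that also answers quickly to hormones and cyclic AMP, lay on the other side, with 116 CPM without LPS, 136 and 132 at 8 and 16 h, and 112 at 20 h. Its fold over no LPS was 1.18 at 8 h (1.12 to 1.23) and 1.14 at 16 h (1.09 to 1.20).

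The cryptochrome genes, whose proteins bind and block the CLOCK and BMAL1 pair, lay on opposite sides as well. Cry2 (chromosome 2, 92403646 to 92434043, minus strand) stood at 47.0 CPM without LPS, 66.6 and 68.2 at 8 and 16 h, and 44.7 at 20 h. It was at 1.42-fold the no LPS level at 8 h (1.32 to 1.52), at 1.45-fold at 16 h (1.35 to 1.56), and at 0.656-fold the 16 h level at 20 h (0.610 to 0.705). Cry1 (chromosome 10, 85131700 to 85185064, minus strand) had the flattest profile of the 10 genes, with 74.9 CPM without LPS, 68.4 and 68.6 at 8 and 16 h, and 78 at 20 h. The highest of these levels was 1.14 times the lowest.

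The receptor genes Nr1d1 and Nr1d2 shared 1 shape. Nr1d2 (chromosome 14, 18204054 to 18239127, minus strand) had 2169 reads without LPS, 1366 and 1322 at 8 and 16 h, and 2121 at 20 h, or 76.7, 47.6, 47.7 and 76.6 CPM. Its fold over no LPS was 0.620 at 8 h (0.579 to 0.664) and 0.622 at 16 h (0.580 to 0.666), the largest difference among the members after Per3, and still short of a 2-fold call. Nr1d1 (chromosome 11, 98767932 to 98775333, minus strand) had 24.1, 17.6, 17.5 and 23.8 CPM in the same order of labels, at 0.731-fold the no LPS level at 8 h (0.651 to 0.822) and 0.728-fold at 16 h (0.647 to 0.819). Nr1d1 shares 263 exon bases, 8.55% of its exon length, with Thra on the opposite strand. Whether reads were counted by strand is not given, so some Nr1d1 reads may belong to Thra, which stood at 23.7 CPM without LPS, 33.7 and 32.6 at 8 and 16 h, and 24.4 at 20 h, the reverse of the Nr1d1 order between the 2 pairs of libraries.

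Dbp (chromosome 7, 45705088 to 45710203, plus strand), a D-box activator that is among the most strongly rhythmic transcripts of mouse tissues, had 35 reads without LPS, 38 and 37 at 8 and 16 h, and 51 at 20 h, or 1.24, 1.32, 1.34 and 1.84 CPM. No pair of libraries differed in Dbp beyond counting error; the widest, 20 h over no LPS, was 1.49-fold with an interval of 0.949 to 2.36, so equal levels and a 2-fold difference both lie within it at this depth. In addition, 539 exon bases of Dbp, 18% of its exon length, overlap Sphk2 on the opposite strand, which had 1095 to 1225 reads, so the Dbp reads are uncertain. Smaller overlaps were 295 exon bases between Cry2 and D930015M05Rik, which had at most 1 read, and 33 between Arntl and Gm45355. Per3 overlaps Camta1 on the same strand without shared exon bases.

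**Figure D2:**
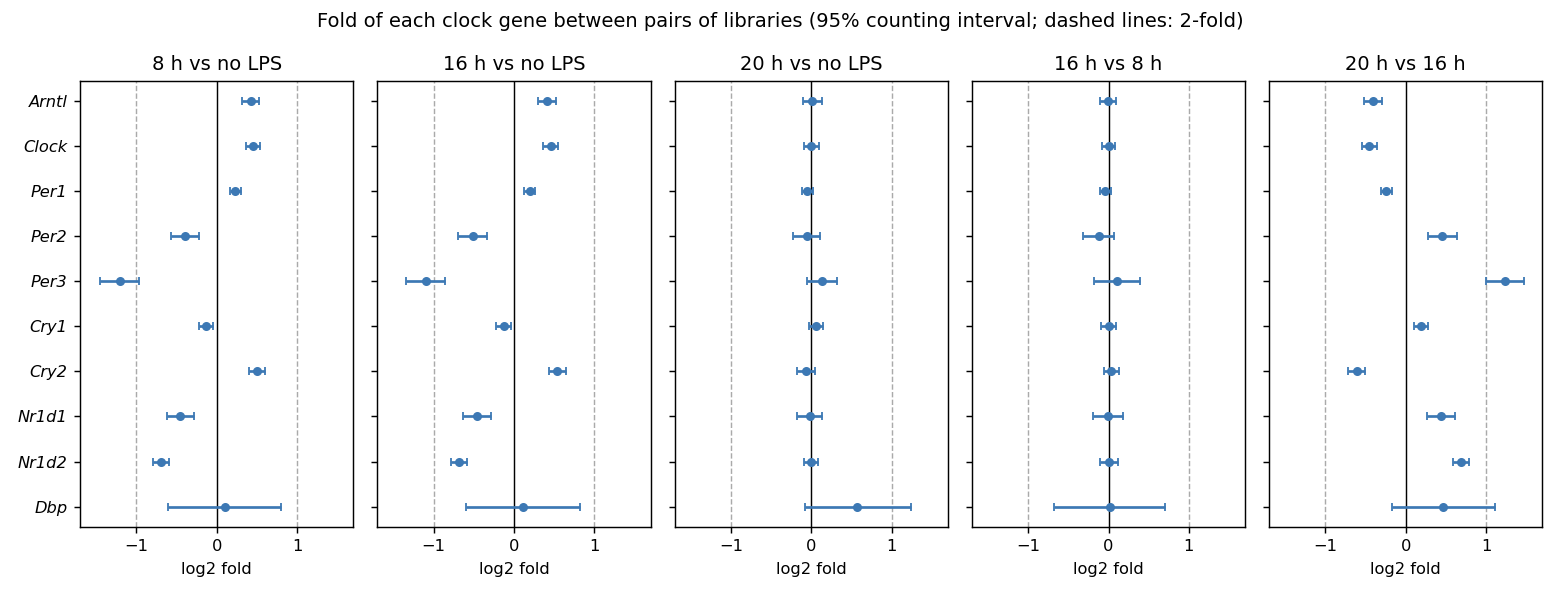
Log2 fold of each clock gene in 5 pairs of libraries (first library over second), with 95% counting intervals; dashed lines mark a fold of 2. Intervals miss 0 for 9 of 10 genes at 8 h and 16 h against no LPS and at 20 h against 16 h, and for 0 of 10 at 20 h against no LPS and at 16 h against 8 h.

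Set against the whole table, the clock genes passed the 2-fold rule about as often as measured genes in general. In the 8 h against no LPS comparison 1 of 10 members was called, Per3, where 8.31% of measured genes were called and 4.13% were called lower. At 16 h against no LPS it was again Per3 alone, with 8.23% of measured genes called and 4.09% lower. At 20 h against 16 h Per3 was called higher, with 8.47% of genes called and 4.63% higher. No member was called at 20 h against no LPS or at 16 h against 8 h, where 0.652% and 0.237% of genes were. The comparisons with no LPS share that library, so they are not independent of each other.

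With no fold threshold, so with Per3 included, the interval excluded 1 for 9 of 10 members at 8 h against no LPS, 4 higher and 5 lower, and for the same counts at 16 h. This was so for 70.0% of measured genes at 8 h, 35.3% higher and 34.7% lower, and for 70.6% at 16 h, 35.7% higher and 35.0% lower. With a fold of at least 1.5 as well, 2 members were called at 8 h and 2 at 16 h (Per3 and Nr1d2), where 19.9% and 20.0% of genes were, and 3 at 20 h against 16 h (these and Cry2), where 20.7% were. At 20 h against no LPS the interval held 1 for all 10 members, while it excluded 1 for 26.4% of measured genes, and at 16 h against 8 h it held 1 for all 10, while it excluded 1 for 10.5%. At 20 h against 16 h it excluded 1 for 9 members, 5 higher and 4 lower, and for 71.1% of genes, 36.5% higher and 34.6% lower. The median log2 ratio of the members was -0.02 at 8 h and -0.01 at 16 h against no LPS, beside 0.00 and 0.01 over all measured genes.

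**Figure D3:**
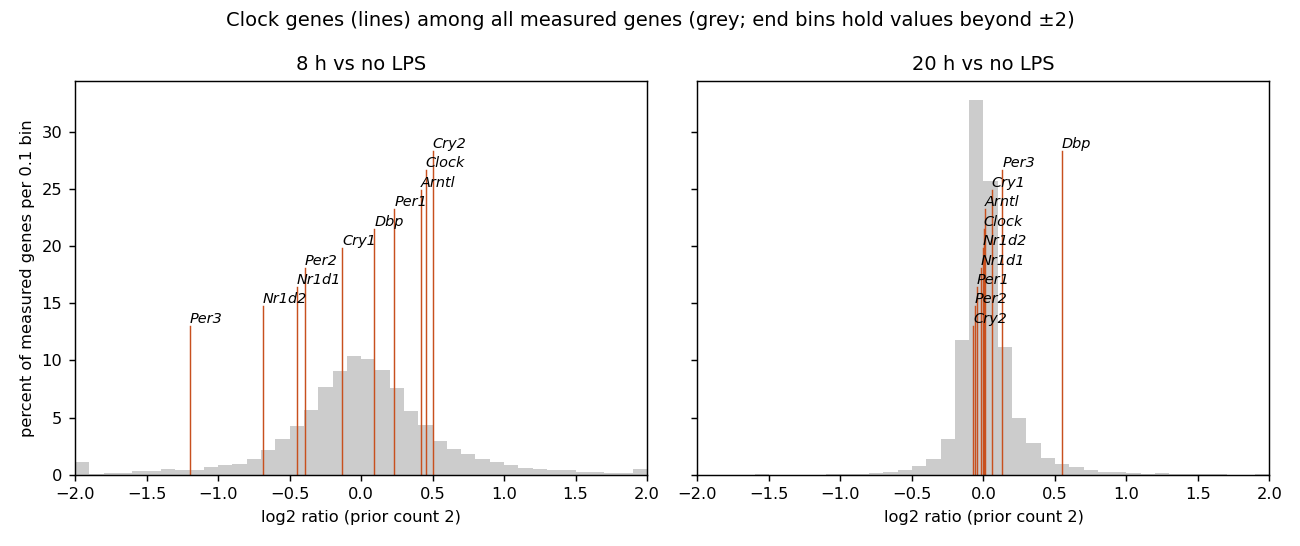
Log2 ratio (prior count of 2) of each clock gene, as labelled lines of arbitrary height, over the distribution of all 11803 measured genes in grey, as percent of genes per bin of 0.1, for 8 h and 20 h against no LPS. At 8 h the members lie between -1.20 for Per3 and 0.50 for Cry2, and at 20 h all but Dbp lie close to 0.

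The order of the libraries by labelled hour was addressed with a straight line over 0, 8, 16 and 20 h. In edgeR's quasi-likelihood test, with 2 residual degrees of freedom, 0 of 10 members and 0 of 11803 genes passed an adjusted p of 0.05. At an unadjusted p under 0.05 there were 43 genes, 0.364% of those tested, and no member, and DESeq2 called 0 genes, with 30, or 0.254%, at an unadjusted p under 0.05. The fitted change of Per3 over 20 h was -0.01 on the log2 scale with a standard error of 0.72, and that of Arntl was 0.08 with a standard error of 0.31. Dbp had the smallest p of the members, 0.356 unadjusted in edgeR, with a fitted log2 change of 0.47 and a standard error of 0.45. With so few libraries a missed threshold does not show that levels ignore the labelled hours. A line over these hours also leaves most of a difference between the 2 pairs of libraries as residual spread. The common dispersion, edgeR's shared estimate of spread, was 0.061 for the line and 0.00777 for the 24 h curve below. The line could therefore hardly call any gene, and its 0 calls decide nothing. The highest and lowest levels of 9 members, all but Dbp, fell in libraries of opposite pairs. The share of all measured genes with that pattern was not counted. The pairing ran through the whole table, with a mean chi-square per gene of 74.0 to 79.6 between libraries of different pairs, so the pattern is not particular to clock genes.

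A curve with a period of 24 h over the same labels, with 1 residual degree of freedom, was tested as well. Of the 10 members 5, namely Per3, Nr1d2, Cry2, Clock and Arntl, passed an adjusted p of 0.05 in edgeR's quasi-likelihood test, where 30.2% of all 11803 genes did. With DESeq2 the count was 3 of 10, Per3, Nr1d2 and Cry2, against 13.8% of genes. The fitted peak-to-trough difference of Per3 was 1.74 on the log2 scale with a peak at 23.0 h (edgeR adjusted p = 0.000227), and that of Nr1d2 was 1.0 with a peak at 23.5 h (edgeR adjusted p = 0.000242). Arntl peaked at 11.5 h with a difference of 0.60 (edgeR adjusted p = 0.0217, DESeq2 0.170), and Clock at 11.5 h with 0.66 (edgeR adjusted p = 0.00469, DESeq2 0.0522). Cry2 also peaked at 11.5 h, with a difference of 0.79 (edgeR adjusted p = 0.00312).

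The fitted peaks of the clock genes fell at 2 places on the 24 h curve, apart from that of Dbp. Per1 peaked at 10.8 h, near Arntl, Clock and Cry2, and Cry1 at 22.9 h, Nr1d1 at 23.6 h and Per2 at 0.28 h, near Per3 and Nr1d2; these did not pass an adjusted p of 0.05 in edgeR (0.121, 0.495, 0.054 and 0.0783 for Per1, Cry1, Nr1d1 and Per2). Dbp, at 18.7 h, was far from the threshold (edgeR adjusted p = 0.884). The same 2 places held for the table as a whole: of the 3570 genes that the curve called, 50.9% peaked within 3 h of 12 h, 48.0% within 3 h of 0 h, and 42 genes, 1.18%, elsewhere. With these 4 labels, a curve of 24 h and a difference between the pair labelled 8 h and 16 h and the pair labelled no LPS and 20 h cannot be told apart. Other features moved with that pairing: the mitochondrial share of reads was 1.36% and 1.4% at 8 and 16 h, against 1.8% without LPS and 1.9% at 20 h. The summed endothelial markers stood at 8.74 and 8.30 CPM at 8 and 16 h, against 5.77 without LPS and 5.96 at 20 h. Among them S1pr1, the gene of the sorting reporter, had 87 and 79 reads at 8 and 16 h, against 27 without LPS and 29 at 20 h, and was called higher than with no LPS at 8 h, at 3.17-fold (2.04 to 5.08), and at 16 h, at 2.99-fold (1.91 to 4.81). In the same order of libraries, summed epithelial markers, of which only Krt8 was measured, stood at 33.1 and 33.2 CPM, against 14.2 and 15.1, and summed neutrophil markers at 0.383 and 0.397 CPM, against 1.42 and 1.0. Summed fibroblast markers were at 365 and 375 CPM, against 456 and 464, and most of that gap was Col3a1, at 81.8 and 83.2 CPM, against 167 and 163. Of the 5 fibroblast markers measured, the interval at 8 h against no LPS lay above 1 for 1, below 1 for 2 and held 1 for 2. Summed macrophage markers were at 90.0 and 85.7 CPM, against 118 and 116, which followed Cd68 alone, at 66.5 and 62.0 CPM, against 99.7 and 96.6. Other macrophage markers did not follow Cd68. Adgre1 was called higher than with no LPS at 8 h, at 2.54-fold (1.27 to 5.44), and at 16 h, at 6.55-fold (3.54 to 13.2). Its reads were 31 and 77 at 8 and 16 h, against 12 without LPS and 24 at 20 h. Csf1r was called higher at 16 h, at 3.40-fold (1.57 to 8.14), with 30 reads, and had 26 at 20 h. Itgax stood at 17.1 and 16.1 CPM at 8 and 16 h, against 13.45 without LPS and 12.49 at 20 h. Mrc1 had 90 and 77 reads, against 77 and 90. The part of all these features in the clock gene differences was not tested.

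Ratios within a library do not depend on how libraries are scaled. Per3 had 0.388 reads for each Arntl read with no LPS (95% counting interval 0.347 to 0.433), 0.126 at 8 h (0.108 to 0.145), 0.136 at 16 h (0.117 to 0.157) and 0.422 at 20 h (0.379 to 0.470). Nr1d2 had 1.84 reads for each Arntl read with no LPS (1.71 to 1.98), 0.853 at 8 h, 0.860 at 16 h and 1.82 at 20 h (1.7 to 1.96). For Nr1d1 the ratio was 0.578, 0.316, 0.316 and 0.566, and for Per2 0.528, 0.300, 0.278 and 0.503, in the same order of labels. For these 4 genes and Cry1 the intervals of the 8 h and 16 h libraries lay below those of the no LPS and 20 h libraries. The share of all measured genes whose ratio to Arntl would do the same was not counted. Arntl itself was higher at 8 and 16 h, which lowers every such ratio there. For Per1, whose own level was higher at 8 and 16 h, the ratio was 2.78, 2.44, 2.39 and 2.67 in the same order of labels. Clock kept nearly the same ratio to Arntl in all 4 libraries, 1.51, 1.54, 1.55 and 1.5, with intervals that overlap. For Dbp the ratio was 0.0297 without LPS, 0.0237 and 0.0241 at 8 and 16 h, and 0.0438 at 20 h, with intervals that all overlap; the farthest apart were 20 h, from 0.0325, and 8 h, up to 0.0327.

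**Figure D4:**
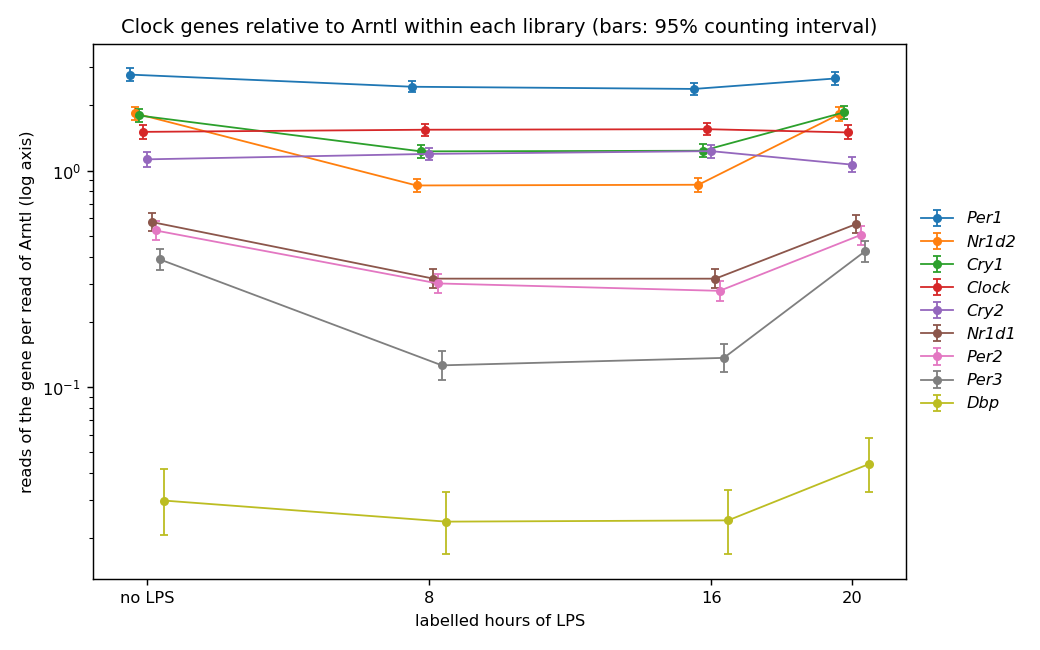
Reads of each clock gene per read of Arntl within each library, on a log axis, against the labelled hours (no LPS placed at 0); bars are 95% counting intervals. Per3, Nr1d2, Nr1d1, Per2, Cry1 and, to a smaller degree, Per1 dip at 8 h and 16 h, and Clock and Cry2 run nearly level.

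Levels of different members were set side by side per length, as scaled reads (CPM) per kilobase of merged exons, averaged over the 4 libraries. Per1 and Cry1 were the most abundant, at 22.0 and 21.7, and their ranges over libraries, 19.9 to 24.2 and 20.5 to 23.4, overlap. Nr1d2 followed at 11.5, with a range of 8.80 to 14.2, and Cry2 averaged 8.96 with 7.08 to 10.8. Their order depended on the library: at 8 and 16 h Cry2 stood at 10.5 and 10.8, above Nr1d2 at 8.80 and 8.82, and without LPS and at 20 h it stood at 7.43 and 7.08, below Nr1d2 at 14.2 in both. Nr1d1, Arntl and Clock came next, and their ranges of 5.70 to 7.83, 5.54 to 7.41 and 4.59 to 6.28 overlap. Per2 at 3.22, with a range of 2.63 to 3.76, Per3 at 1.26, with 0.729 to 1.84, and Dbp at 0.479, with 0.414 to 0.615, were lowest and did not overlap their neighbours. Among 9095 genes of at least 10 CPM in a library, 2.03% had a log2 range over the 4 libraries as wide as that of Per3, 13.7% as wide as Nr1d2, 34.6% as wide as Arntl and 72.8% as wide as Cry1.

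Of 13 other clock transcription factors and their partners, 9 were measured. Npas2, a stand-in for Clock in some tissues, had 0 reads in all 4 libraries (up to 0.108 CPM by 3 reads), while Arntl2, a relative of Arntl, stood at 27.9 CPM without LPS, 27.1 and 27.5 at 8 and 16 h, and 28.8 at 20 h. In this list 0 of 9 were called at 8 h against no LPS, and 1 of 9, Rora, was lower at 16 h. Rora, which encodes an activator of Arntl that competes with the REV-ERB receptors, had 82 reads without LPS, 45 and 33 at 8 and 16 h, and 73 at 20 h, and was 2.44-fold lower at 16 h than with no LPS (1.61 to 3.77). Tef, a D-box activator related to Dbp, had 67.2, 42.4, 37.3 and 64.3 CPM in the same order and a fold over no LPS of 0.630 at 8 h (0.586 to 0.678) and 0.555 at 16 h (0.514 to 0.599). The E-box repressor Bhlhe41 lay on the other side, at 19.1, 28.9, 30.5 and 20.0 CPM and 1.51-fold the no LPS level at 8 h (1.35 to 1.69). Timeless, which acts mainly at replication forks in mammals, was at 1.69-fold (1.59 to 1.80) at 8 h. The median log2 ratio of the measured list was 0.29 at 8 h and 0.32 at 16 h, beside 0.00 and 0.01 for all measured genes. At 20 h against 16 h Rora was called higher, at 2.21-fold (1.45 to 3.45).

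Of 12 kinases, ubiquitin ligases and modifiers of clock proteins, 11 were measured and none was called in any of the 5 comparisons. The casein kinase gene Csnk1d, whose product marks PER proteins for decay, stood at 205 CPM without LPS, 194 and 198 at 8 and 16 h, and 206 at 20 h. Sirt1, a deacetylase that acts on clock proteins, had the widest range of the list, at 90.9, 52.7, 53.7 and 89.3 CPM, with 0.580-fold the no LPS level at 8 h (0.544 to 0.618). Prkaa1, a catalytic subunit gene of the energy sensor AMPK, was at 1.14-fold (1.09 to 1.20) at 8 h, and for Fbxl21, an F-box protein gene, the interval held 1 (0.981 to 1.58).

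Of 20 listed clock output genes 19 were matched, the remaining entry being an older symbol of Ciart, and 17 were measured. Klf10 was called in this list, 2.61-fold higher at 8 h (2.20 to 3.12) and 2.60-fold higher at 16 h (2.19 to 3.10) than with no LPS, and 2.68-fold lower at 20 h than at 16 h (2.25 to 3.21). The cell cycle kinase gene Wee1, driven through E-boxes in mouse liver, lay on the side of Per3, at 48.9 CPM without LPS, 29.3 and 30.4 at 8 and 16 h, and 51.3 at 20 h. Its fold over no LPS was 0.599 at 8 h (0.549 to 0.653). Tspan4, a tetraspanin gene, was at 1.57-fold (1.46 to 1.69) at 8 h, and Rbm3, a cold-inducible RNA-binding protein gene, at 1.32-fold (1.19 to 1.46). The genes named here do not stand for the list. At 8 h against no LPS the interval lay above 1 for 3 of 17 measured genes, below 1 for 9 and held 1 for 5. Of all measured genes 35.3% lay above 1 and 34.7% below. The median log2 ratio of this list was -0.07 at 8 h and -0.13 at 16 h against no LPS.

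Glucocorticoids and cyclic AMP can reset Per1, and genes linked to these pathways were listed for that reason. Besides targets, the lists hold pathway components such as the glucocorticoid receptor gene. Of 14 glucocorticoid-linked genes 11 were measured. Lcn2, at 24.8 CPM at 8 h against 250 CPM with no LPS, and Cebpd, at 4.01 against 9.30 CPM, were called lower at 8 h and at 16 h, and Cebpd was called higher at 20 h, at 3.13-fold (2.72 to 3.61). Tsc22d3, a classical glucocorticoid target, was at 0.692-fold the no LPS level at 8 h (0.639 to 0.750). Klf9, another such target, was at 0.855-fold (0.815 to 0.896). Other members lay on the other side at 8 h, among them Fkbp5 at 1.25-fold (1.21 to 1.30) and Sgk1 at 1.28-fold (1.23 to 1.34). Over the list the interval lay above 1 for 5 of 11 genes and below 1 for 5 at 8 h, and for 6 and 5 at 16 h, and the median log2 ratio was 0.02 at 8 h and 0.07 at 16 h. Of 11 genes of the cyclic AMP response 10 were measured, and 0 were called against no LPS at 8, 16 or 20 h. In that list the receptor gene Nr4a2 was called at 20 h against 16 h, 2.10-fold higher (1.63 to 2.73). Against no LPS at 8 h the fold was 0.651 for Ppargc1a (0.485 to 0.871), 1.73 for Fos (1.20 to 2.51) and 1.25 for Pde4d (1.02 to 1.54).

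Per3 had the widest range of the members, and the genes with the most similar profile were sought among the 9095 genes of at least 10 CPM by the Euclidean distance of 4 mean-centred log2 CPM values. Genes without a symbol, model gene names (Gm or Rik), pseudogenes and genes of chromosome 18 were skipped. The 5 nearest of the rest were Lgals3bp at a distance of 0.0221, Rsrp1 at 0.0618, Map3k6 at 0.0867, Arl4d at 0.0913 and Brpf3 at 0.0954. Lgals3bp had 10.5, 4.49, 4.84 and 11.3 CPM in the order of the labels, beside 16.2, 7.00, 7.54 and 17.7 CPM for Per3. No other clock gene could be among the 5, because this distance counts the size of the differences as well as their shape. The log2 range was 1.34 for Per3 and 0.69 for Nr1d2, the next widest member. Dbp, below 10 CPM, was not compared. Likeness over 4 libraries is a description only.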

How the data were processed

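Polyadenylated RNA from sorted mouse lung cells was measured in 4 libraries, 1 per label. The authors deposited raw counts per gene, made with STAR and featureCounts on mm10 per the submitters' processing notes; of versions, annotation, strand handling and multi-mapping rules, none is given in the sources used here. Columns were matched to samples by title. Identifiers were matched to GENCODE M21, of the same build, without version (38872 of 39056, 99.5%), which also gave coordinates and exon lengths.

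Counts were scaled with edgeR 4.0.16 TMM factors. Folds carry exact conditional binomial (Clopper-Pearson) 95% intervals; intervals and floors cover counting error only, since no molecular identifiers are named. Log2 ratios used a prior count of 2. The line over labelled hours and the 24 h curve were fitted with glmQLFit and glmQLFTest, with Benjamini-Hochberg adjustment. The genes used were the 11803 reaching 1 CPM in any library. Both fits were checked on simulated counts with less spread than these data and no pairing of libraries. That check does not show how the tests behave on these data. DESeq2 1.42.0 was an alternative (likelihood ratio test). R 4.3.3 and Python 3.11.15 were used.

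The members, gene lists, rule for named genes and tests were chosen with earlier results of these data known. Every member is named. Of the other lists, up to 4 measured genes with the widest log2 CPM range are named (1 is not reported here), and the 5 genes nearest to the member of widest range; Npas2, Arntl2, Csnk1d, Thra, Sphk2, Fkbp5, Sgk1, S1pr1, Col3a1, Cd68, Adgre1 and Csf1r were named after their values were seen. The share with an interval excluding 1 and the promoter motifs were added later. Alternatives were other scalings, prior counts, filters, fold thresholds, interval level, transcript length and, for the line, leaving out each library.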

Additional observations from a re-analysis of the deposited data

How the results depend on the processing

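Of 50 log2 ratios of members, 45 kept their sign under scaling by library size, DESeq2 size factors or upper quartiles and prior counts of 0.5 and 10, and scaling moved none by more than 0.027; the exceptions were near 0 (Arntl and Clock at 20 h against no LPS, and Clock, Cry1 and Nr1d2 at 16 h against 8 h). Per3 was called in 3 comparisons under all scalings, both level filters and the stricter interval level. With a fold of at least 1.5 the members called were 2 at 8 h and 2 at 16 h against no LPS (Per3 and Nr1d2) and 3 at 20 h against 16 h, with Cry2; with a fold of at least 4 there were 0 in each, and with the interval alone, chosen after seeing the data, 9 in each. Counts over all genes moved by over 1.5 times, by construction, with the threshold. A fold of at least 1.5 gave 2343 at 8 h, 2356 at 16 h and 236 at 20 h against no LPS, 92 at 16 h against 8 h and 2449 at 20 h against 16 h. A fold of at least 4 gave 187, 178, 9, 2 and 184 in that order, the interval alone 8258, 8337, 3121, 1236 and 8388, and a minimum of 10 CPM 332, 332, 22, 0 and 357. With no minimum level, 16 h and 20 h against no LPS gave 1484 and 216 and 16 h against 8 h gave 172; the stricter interval level gave 40 at 20 h against no LPS and 4 at 16 h against 8 h. The 24 h curve called 3 members and 1624 genes with DESeq2, against 5 and 3570 with edgeR; Arntl and Clock were lost, and the cause was not tested. Leaving out each library in turn gave 0 members and 0 genes for the line over hours; the 24 h curve then has no residual degrees of freedom and was not refitted. Per kilobase of the longest transcript, Cry2 at 14.2 stood above Nr1d2 at 13.3 and Arntl at 12.2 above Nr1d1 at 7.63. No paired analysis was possible because each label has 1 library. Depth limits Dbp, with 35 to 51 reads.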
